A study of Mus musculus with 12 samples.

Results

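Costimulatory and checkpoint ligands are the surface proteins with which a macrophage or dendritic cell raises or restrains the response of the lymphocyte it touches. The genes described here are Cd80, Cd86, Cd40, Cd274, Pdcd1lg2, Icosl, Slamf1, Cd48, Cd200 and Cd200r1, 10 in all, and every array probe that the platform annotation assigns to one of these symbols was taken. That gave 17 probes of 25697, for 9 of the 10 genes. The annotation lists no probe for Icosl, which was not analysed here. Of the 17 probes, 16 were above background (detection p under 0.05) on at least 2 arrays and were tested. The other, a Cd200r1 probe (ILMN_2819724), was above background on 0 of 12 arrays. The array as a whole names 16593 genes, of which 9430 with 13678 probes (unnamed probes included) were tested.

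A T cell needs a signal through its antigen receptor and a second, costimulatory signal from the cell that presents the antigen. CD80 and CD86 give that signal through CD28 and the opposite one through CTLA-4, CD40 answers the CD40 ligand of activated T cells, and PD-L1 (Cd274) and PD-L2 (Pdcd1lg2) restrain T cells through PD-1. CD200 calms myeloid cells that carry its receptor, and Kupffer cells, macrophages that line the liver sinusoids, are known for presenting antigen in a way that often ends in tolerance.

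The study measured RNA of Kupffer cells in primary culture, taken from male C57BL/6 mice aged 8 weeks with no genetic change named, on 12 Illumina bead arrays in 6 groups of 2. The M0 group had no named treatment and no stated time. Cells were otherwise treated for 24 h with lipopolysaccharide (LPS, a bacterial surface molecule) at 10 ng/ml, with 20 ng/ml of interleukin 4 (IL-4, a T helper cell cytokine), with DMSO as vehicle, with SR3335 or with SR1078. ROR-alpha is a nuclear receptor for which SR3335 is known as an inverse agonist, and SR1078 is known as an agonist of ROR-alpha and ROR-gamma. Their labelled concentrations, 10 mM and 5 mM, differ, and the unit as printed is in doubt. M0, LPS and IL-4 were normalized by the authors as a set of 6 arrays and vehicle, SR3335 and SR1078 as another, so treatments were compared within a set only. LPS and IL-4 share the M0 arrays, and both compounds share the vehicle arrays. No label states whether a group's 2 arrays stand for separate animals or cultures, so every p-value here reflects the spread between replicate arrays alone, which may be technical. The main fit estimates that spread over all 6 groups together. The median standard deviation between replicates was 0.138 log2 in IL-4 and 0.0708 to 0.0903 in the other groups.

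Each array detected 11474 to 12623 probes, and replicate arrays correlated across probes at r = 0.9902 to 0.9966. The cells came from a layer of a density gradient, without a sort. Of 13 Kupffer cell and macrophage markers with a probe, 12 were detected on all 12 arrays, and Cd5l on 0 of them. Markers of other cells were detected on all 12 arrays too: 9 of 10 for sinusoidal endothelium, 6 of 9 for T and NK cells, 3 of 9 for dendritic cells, 2 of 7 for B cells, 2 of 7 for neutrophils, 2 of 8 for hepatocytes and 2 of 8 for stellate cells. The dendritic cell markers Cd209a, Clec9a, Flt3 and Xcr1, the B cell markers Ebf1 and Pax5 and the hepatocyte genes Alb, Fgb and Tat were detected on 0 arrays. Levels below are log2 of the background-corrected, quantile-normalized signal, given for arrays 1 and 2 of each group, and differences carry the standard error (SE) of the limma fit. A difference passed the test at a Benjamini-Hochberg adjusted p under 0.05 over all 13678 probes.

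After LPS, 5 of the 9 measured genes rose: Slamf1, Cd200, Pdcd1lg2, Cd274 and Cd80. Over all tested genes, 14.8% rose. Cd40 fell on 1 of its 4 probes, where 17.3% of all genes fell, and Cd86 rose on 1 probe and fell on its other two. After IL-4, 2 of the 9 rose, Pdcd1lg2 and Cd274, against 9.31% of all genes, and 0 fell, against 10.9%. Cd86 again had probes passing in both directions. Set against IL-4 directly, LPS gave higher levels of Slamf1, Cd200, Cd274 and Cd80 (4 of 9, against 18.9% of all genes) and Pdcd1lg2, Cd40 and Cd200r1 passed as lower (3 of 9, against 19.2%), although Cd200r1 was undetected on all 4 of these arrays and has no measured difference. The median log2 difference of the 16 member probes was 0.32 for LPS against M0, 0.08 for IL-4 against M0 and 0.16 for LPS against IL-4, where the medians of all probes were -0.01, -0.01 and 0.01. Genes with several probes weigh more in such a median, Cd40 with 4 of the 16 and Cd86 with 3. In bulk cultures such as these, a change in the number of cells of a type and a change in RNA per cell cannot be told apart.

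Markers of several cell types moved with LPS beside these genes, where 14.8% of all tested genes rose and 17.3% fell. Of 12 tested Kupffer cell and macrophage markers, 7 fell, among them Clec1b by 2.25 ± 0.18 and Vsig4 by 1.93 ± 0.10, and 4 rose, among them Spic by 1.45 ± 0.14, and the summed signal of the 12 was 186900 to 195900 in M0 and 142800 on both LPS arrays. Of 4 neutrophil markers, Mmp9, Csf3r and Camp rose and Elane fell, and the sum was 2034 to 2039 in M0 and 3349 to 3386 after LPS, with Cxcr2, Mpo and Ngp undetected on all arrays. Of 4 stellate cell and fibroblast markers, Dcn and Acta2 rose, and the sum was 715 to 747 in M0 and 1304 to 1427 after LPS, with Col1a1, Col3a1, Lrat and Pdgfrb undetected throughout. The part of these cells in the member results was not tested.

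SR3335 raised 2 of the 9 genes over vehicle, Cd40 and Slamf1, where 1.92% of all genes rose, and lowered 0 of 9, where 2.21% fell. SR1078 moved 0 of the 9 past the threshold in limma, where 0.901% of all genes rose and 0.297% fell. At an unadjusted p under 0.05, 4 of the 16 member probes differed between SR1078 and vehicle, all of them Cd40 probes, as did 1919 of all 13678 probes. SR3335 gave higher levels than SR1078 of Cd40, Slamf1 and Cd80 (3 of 9, against 2.15% of all genes) and lower levels of 0 of 9 (against 2.4%). The median difference of the 16 member probes was 0.39 for SR3335 against vehicle, -0.08 for SR1078 against vehicle and 0.59 for SR3335 against SR1078, and the medians of all probes were -0.01, -0.01 and 0.00. Cd40, with 4 of the 16 probes, weighs most in these member medians.

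**Figure D1:**
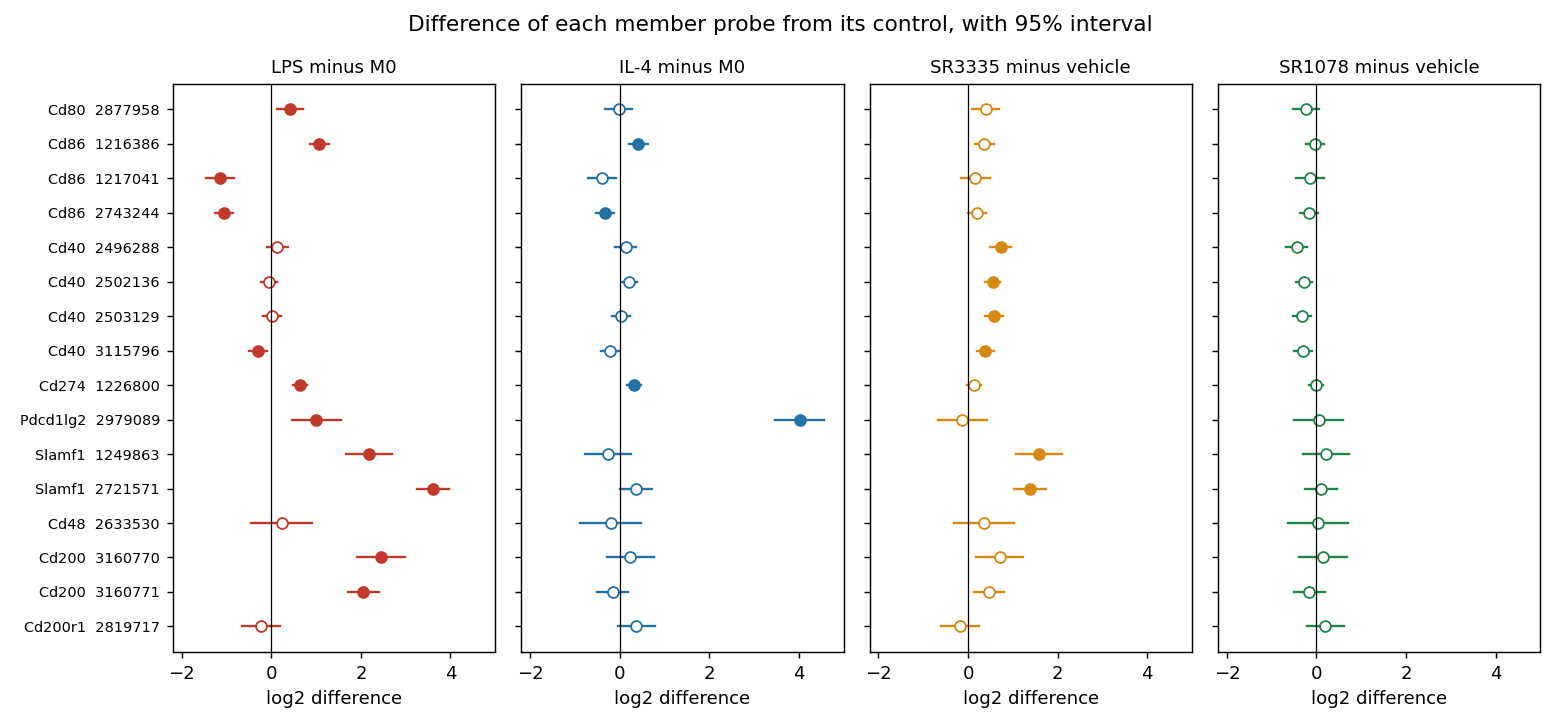
Log2 difference of each member probe (rows) for LPS and IL-4 against M0 and SR3335 and SR1078 against vehicle, with 95% intervals of the limma fit. Filled points passed at an adjusted p under 0.05 and open points did not. Slamf1 and Cd200 lie to the right after LPS, Pdcd1lg2 lies farthest to the right after IL-4 at 4.02, and the 4 Cd40 probes lie to the right for SR3335 and to the left, unfilled, for SR1078.

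CD80 and CD86 are the B7 proteins that CD28 and CTLA-4 bind. Cd80 (chromosome 16, 1 probe, ILMN_2877958) measured 8.13 and 8.11 in M0, 8.53 and 8.54 after LPS, and 8.20 and 7.99 after IL-4. Both LPS arrays lay above all M0 and IL-4 arrays, and the IL-4 arrays spanned those of M0. Cd80 rose by 0.41 ± 0.13 (SE) on the log2 scale with LPS, 1.33-fold (adjusted p = 0.044), a small change close to the threshold. The call was lost when any 1 of the 4 arrays was left out (adjusted p = 0.121 to 0.147), and also with median centring (0.28, adjusted p = 0.191), with each array set fitted on its own (adjusted p = 0.0521) and without the detection filter (adjusted p = 0.0683). LPS exceeded IL-4 by 0.44 (adjusted p = 0.0304), a call lost with median centring (0.148) and without LPS replicate 1 (0.0987), LPS replicate 2 (0.098) or IL-4 replicate 2 (0.131). With IL-4 the Cd80 difference was -0.02, with a 95% interval of -0.32 to 0.27 (adjusted p = 0.926).

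In the other set, Cd80 measured 9.36 and 9.54 with vehicle, 9.79 and 9.89 with SR3335, and 9.40 and 9.03 with SR1078. The SR3335 arrays were the highest, and the SR1078 arrays overlapped vehicle. SR3335 exceeded SR1078 by 0.62 ± 0.13 (1.54-fold, adjusted p = 0.037), but neither compound passed against vehicle, with differences of 0.39 for SR3335 (adjusted p = 0.165, and 0.0458 with the authors' values) and -0.23 for SR1078 (adjusted p = 0.483). The call between the compounds was lost with median centring (adjusted p = 0.0875), with each set on its own (0.0689), without the filter (0.0578), and without SR3335 replicate 1 (0.149), SR3335 replicate 2 (0.193) or SR1078 replicate 2 (0.21).

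Cd86 (chromosome 16) has 3 probes, and they disagreed in direction. ILMN_1216386 measured 11.16 and 11.04 in M0, 12.20 and 12.15 after LPS, and 11.47 and 11.57 after IL-4. ILMN_1217041 measured 13.56 and 13.58 in M0, 12.54 and 12.31 after LPS, and 12.95 and 13.41 after IL-4. ILMN_2743244 measured 13.86 in both M0 arrays, 12.85 and 12.75 after LPS, and 13.48 and 13.59 after IL-4. On the first probe the M0 arrays were lowest and the LPS arrays highest, and on the other two the M0 arrays were highest and the LPS arrays lowest, with IL-4 between them on all 3 probes and no overlap between groups.

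With LPS the first Cd86 probe rose by 1.07 ± 0.09 (2.10-fold, adjusted p = 5.84e-05), while ILMN_1217041 fell by 1.14 ± 0.14 (adjusted p = 0.000476) and ILMN_2743244 by 1.05 ± 0.09 (adjusted p = 6.14e-05). These 3 calls kept their direction and passed under every alternative setting tried. With IL-4 the first probe rose by 0.42 ± 0.09 (adjusted p = 0.0158), ILMN_2743244 fell by 0.32 ± 0.09 (adjusted p = 0.0393), and ILMN_1217041 differed by -0.40 ± 0.14 without passing (adjusted p = 0.0864). Fitted on its own array set, neither IL-4 call of Cd86 remained (adjusted p = 0.0904 and 0.137), and ILMN_2743244 also lost its call without the filter (0.0706), without either M0 array (0.126 and 0.127) and without IL-4 replicate 1 (0.147). The first probe lost its IL-4 call without M0 replicate 2 (0.0881). ILMN_1217041 passed as lower with IL-4 without background correction (0.0283), with the authors' values (0.0339), with a variance trend (0.0196) and without IL-4 replicate 2 (0.00629). Of the 2470 genes with several tested probes, 27 had probes passing in opposite directions after LPS (1.09%) and 6 after IL-4 (0.243%). Which Cd86 transcripts each probe reads was not analysed here, so no direction is given for the gene as a whole.

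With the compounds the 3 Cd86 probes moved less. ILMN_1216386 measured 13.26 and 13.34 with vehicle, 13.60 and 13.73 with SR3335, and 13.33 and 13.21 with SR1078. The SR3335 arrays were above the rest, by 0.36 ± 0.09 over vehicle (adjusted p = 0.0678) and by 0.39 ± 0.09 over SR1078 (adjusted p = 0.0511), neither past the threshold. Both differences passed in 4 alternatives: without background correction (adjusted p = 0.0137 and 0.00849), with the authors' values (0.0107 and 0.00631), with a stricter filter (0.0449 and 0.0331) and with a variance trend (0.00692 and 0.00426). The other two probes differed from vehicle by 0.16 and 0.20 with SR3335 and by -0.14 and -0.16 with SR1078, with adjusted p from 0.292 to 0.728. On ILMN_2743244, SR3335 was above SR1078 by 0.36 (adjusted p = 0.0652), which passed in the same 4 alternatives (0.00592 to 0.043) and with median centring (0.0484), as did ILMN_1216386 between the compounds (0.0331).

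**Figure D2:**
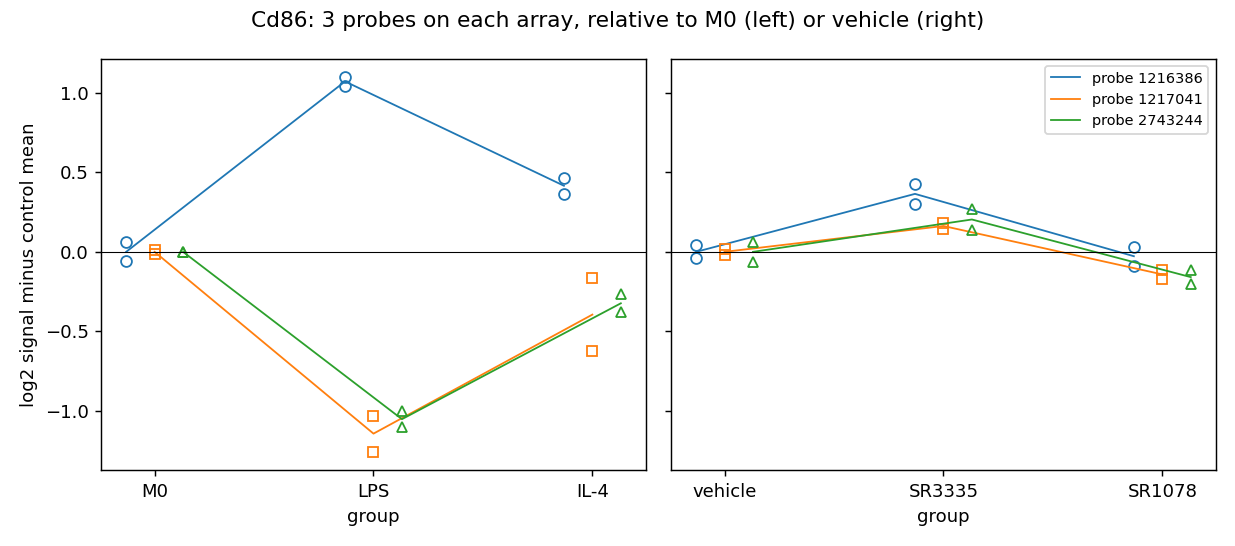
Log2 signal of the 3 Cd86 probes on each array (points) minus the control mean of the probe, with group means as lines. M0, LPS and IL-4 are set against the M0 mean, and vehicle, SR3335 and SR1078 against the vehicle mean. ILMN_1216386 goes up from M0 to LPS while ILMN_1217041 and ILMN_2743244 go down, and IL-4 lies between them on each probe.

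CD40 is the receptor through which activated T cells stimulate macrophages, dendritic cells and B cells. Cd40 (chromosome 2) has 4 probes, annotated to more than 1 transcript record. Which Cd40 transcripts each probe reads was not analysed here. With SR3335 all 4 rose, and they were higher on both SR3335 arrays than on any vehicle or SR1078 array. ILMN_2496288 measured 7.23 and 7.32 with vehicle, 7.92 and 8.09 with SR3335, and 6.84 and 6.82 with SR1078. ILMN_2502136 measured 12.61 and 12.62 with vehicle, 13.17 and 13.15 with SR3335, and 12.37 and 12.29 with SR1078. The order was the same on both probes, with SR3335 highest, vehicle between and SR1078 lowest, and the groups did not overlap.

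ILMN_2503129 measured 11.32 and 11.42 with vehicle, 11.95 and 11.94 with SR3335, and 11.05 and 11.03 with SR1078. ILMN_3115796 measured 13.78 and 13.91 with vehicle, 14.26 and 14.20 with SR3335, and 13.60 and 13.49 with SR1078. These probes kept the same order without overlap. The rise with SR3335 was 0.73 ± 0.10 on ILMN_2496288 (1.66-fold, adjusted p = 0.00777), 0.55 ± 0.08 on ILMN_2502136 (1.46-fold, adjusted p = 0.00749), 0.58 ± 0.09 on ILMN_2503129 (1.49-fold, adjusted p = 0.0111) and 0.39 ± 0.09 on ILMN_3115796 (1.31-fold, adjusted p = 0.049).

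With SR1078 the Cd40 differences from vehicle were -0.44, -0.28, -0.33 and -0.30 on the same 4 probes, and none passed in limma (adjusted p = 0.0977, 0.141, 0.137 and 0.16). Their 95% intervals ran from -0.68 to -0.21, -0.46 to -0.11, -0.53 to -0.13 and -0.50 to -0.10. Between the compounds, at their unequal labelled doses, SR3335 exceeded SR1078 by 1.18 ± 0.10, 0.83 ± 0.08, 0.91 ± 0.09 and 0.69 ± 0.09 (1.61-fold to 2.26-fold, adjusted p = 0.00146 to 0.00522). On ILMN_2496288, the dimmest of the 4, the SR3335 difference was 0.44 from vehicle and 0.66 from SR1078 without background correction, and 0.47 and 0.73 with the authors' values. With only 1 array left in a group, all 4 Cd40 calls of SR3335 against vehicle were lost without Veh replicate 1 (adjusted p = 0.0862 to 0.302) and without SR3335 replicate 2 (0.0628 to 0.172), and 3 of 4 were lost without Veh replicate 2 (0.0583 to 0.114) or SR3335 replicate 1 (0.076 to 0.265). On ILMN_3115796 the SR3335 call was also lost with each set on its own (0.0551) and without the filter (0.0914), and the call between the compounds without SR3335 replicate 1 (0.0638) or SR1078 replicate 2 (0.0599). The SR1078 difference passed as a fall on 2 probes without background correction (adjusted p = 0.0386 and 0.0469) and on 3 with the authors' values (0.0273 to 0.0456) or a variance trend (0.0286 to 0.0405).

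B cells also carry CD40, and their markers differed between the compound groups. The summed signal of 4 tested B cell markers was 859 to 883 with vehicle, 865 to 924 with SR3335 and 1397 to 1409 with SR1078. Cd79b, 1 of the 4, rose with SR1078 by 0.62 ± 0.10 (adjusted p = 0.0367), where 0.901% of all genes rose. Cd79a and Cd79b were lower with SR3335 than with SR1078 (adjusted p = 0.0492 and 0.0166), where 2.4% of all genes were. Between SR3335 and vehicle 0 of 4 passed, where 1.92% of all genes rose and 2.21% fell. These marker calls were not checked under the alternative settings. The sum was highest with SR1078. Ebf1 and Pax5 were undetected throughout. The part of these cells in the Cd40 values was not tested.

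In the other set Cd40 moved little. ILMN_2496288 measured 6.58 in both M0 arrays, 6.58 and 6.84 after LPS, and 6.76 and 6.68 after IL-4. ILMN_2502136 measured 11.58 and 11.51, 11.52 and 11.48, and 11.82 and 11.71 in the same order, and ILMN_2503129 measured 9.86 and 9.90, 9.82 and 9.98, and 9.97 and 9.83. ILMN_3115796 measured 13.07 and 12.96 in M0, 12.74 and 12.69 after LPS, and 12.76 and 12.85 after IL-4. ILMN_3115796 was the only probe of the 4 that passed with LPS, where it fell by 0.30 ± 0.09 (adjusted p = 0.0307), while the other probes differed by 0.13, -0.04 and 0.02 (adjusted p = 0.392 to 0.883). That call was lost when any 1 array was left out (adjusted p = 0.0539 to 0.147), with each set on its own (0.117) and without the filter (0.0576). With IL-4 the 4 probes differed by 0.14, 0.22, 0.02 and -0.21, none past the threshold (adjusted p = 0.0852 to 0.901). ILMN_2502136 passed as higher with IL-4 without background correction (0.0462), with a variance trend (0.0225) and without IL-4 replicate 2 (0.0485), and ILMN_3115796 as lower with a variance trend (0.0362). LPS was below IL-4 on ILMN_2502136, by 0.26 ± 0.08 (adjusted p = 0.0286), a call lost with each set on its own (0.14), without the filter (0.0584) and without LPS replicate 1 (0.076), LPS replicate 2 (0.118) or IL-4 replicate 1 (0.0999).

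**Figure D3:**
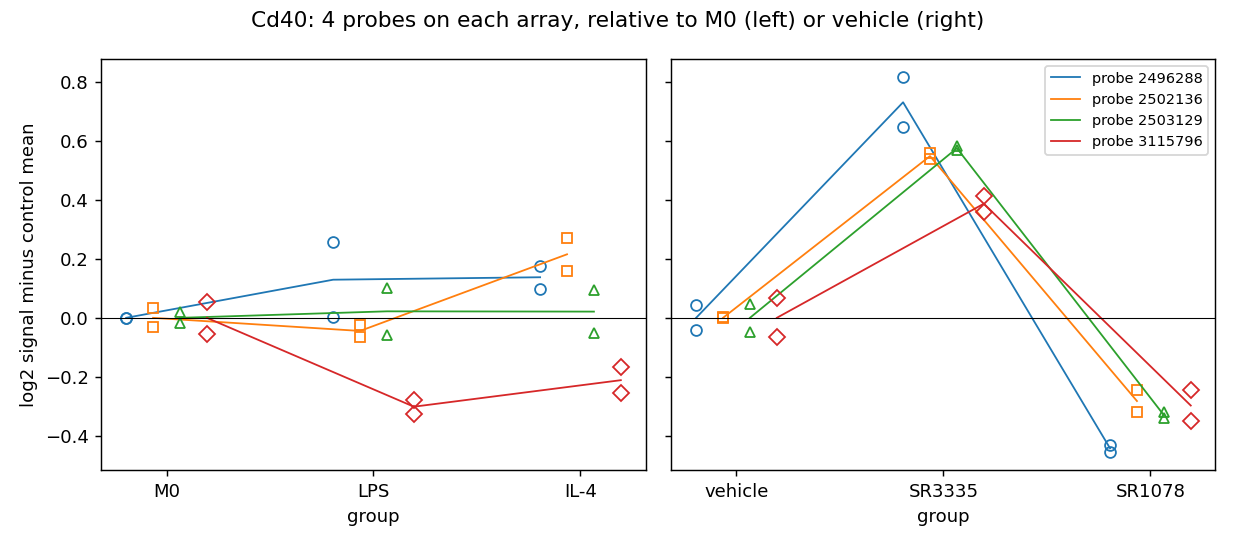
Log2 signal of the 4 Cd40 probes on each array (points) minus the M0 or vehicle mean of the probe, with group means as lines. In the set with vehicle, each probe is highest with SR3335 and lowest with SR1078, and in the set with M0 the group means differ from M0 by at most 0.30 on every probe.

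PD-L1 and PD-L2 are the ligands of the inhibitory receptor PD-1. Their genes, Cd274 and Pdcd1lg2, are neighbours on chromosome 19 with 0 annotated protein-coding genes between them in RefSeq (GRCm38.p6). Cd274 (ILMN_1226800) measured 14.45 and 14.46 in M0, 15.12 and 15.08 after LPS, and 14.80 and 14.75 after IL-4. The groups did not overlap, with LPS highest and M0 lowest. LPS raised Cd274 by 0.64 ± 0.07 (1.56-fold, adjusted p = 0.000271) and IL-4 by 0.32 ± 0.07 (1.25-fold, adjusted p = 0.0185), and LPS exceeded IL-4 by 0.33 ± 0.07 (adjusted p = 0.00781). The IL-4 call was lost with median centring (adjusted p = 0.0728), with each set on its own (0.122) and without M0 replicate 1 (0.0814), M0 replicate 2 (0.0721) or IL-4 replicate 1 (0.0587), and the call between LPS and IL-4 with each set on its own (0.0554).

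Cd274 was a bright probe. Its raw signal was 33.8% to 50.7% of the brightest probe of the same array in M0, LPS and IL-4, and 70.4% to 85.4% in the other set. Cd274 measured 15.41 and 15.36 with vehicle, 15.53 and 15.50 with SR3335, and 15.41 and 15.34 with SR1078. The SR3335 arrays were slightly above the rest, by 0.13 over vehicle (95% interval -0.03 to 0.29, adjusted p = 0.428), and SR1078 differed from vehicle by -0.01 (-0.17 to 0.15, adjusted p = 0.975). Whether a signal this near the top of the scale limits the range of such differences was not tested.

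Pdcd1lg2 (ILMN_2979089) responded most to IL-4 among the member probes. It was not above background on either M0 array, at 5.18 and 5.22, measured 6.07 and 6.35 after LPS and reached 9.67 and 8.78 after IL-4. The IL-4 arrays stood far above all others, and the LPS arrays lay just above those of M0. Against the detection limit in M0, Pdcd1lg2 was at least 11.0-fold higher with IL-4 (log2 difference 4.02 ± 0.24, adjusted p = 3.86e-05), and the LPS level was at least 1.36-fold higher (1.01 ± 0.24, adjusted p = 0.0139). Such a bound sets the treated mean against the dimmest detected signal of the M0 arrays and holds on the background-corrected scale only. Measured on both sides, IL-4 exceeded LPS 8.09-fold (LPS minus IL-4 was -3.02 ± 0.24, adjusted p = 3.1e-05).

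The IL-4 rise of Pdcd1lg2 passed under every alternative tried, but its size fell to 2.18 without background correction and to 2.11 with the authors' values. In those settings it was below the LPS rise of Slamf1 ILMN_2721571 (2.29 in both), which it exceeds in the main setting. The LPS rise was smaller and lost its call without background correction (0.35, adjusted p = 0.103), with the authors' values (0.28, adjusted p = 0.207), with each set on its own (0.89, adjusted p = 0.0991) and without M0 replicate 1 (0.0588), M0 replicate 2 (0.0556) or LPS replicate 2 (0.0754). In the other set Pdcd1lg2 measured 6.51 and 6.47 with vehicle, 6.45 and 6.27 with SR3335, and 6.44 and 6.64 with SR1078. The 6 values lay close together, and the differences from vehicle were -0.13 (95% interval -0.68 to 0.42) and 0.05 (-0.50 to 0.59).

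Dendritic cells also carry PD-L2, and 2 of their 5 tested markers rose with IL-4, against 9.31% of all genes. Batf3, a transcription factor, rose by 2.39 ± 0.18 (adjusted p = 0.000113), and Itgax, an integrin also found on macrophages, was at least 1.81-fold higher (adjusted p = 0.000427). Siglech fell with IL-4 (at least 1.18-fold lower, adjusted p = 0.00864), and the other two, Zbtb46 and Ccr7, differed by 0.15 and 0.03. The summed signal of the 5 markers was 1104 to 1274 in M0, 823 to 929 after LPS and 3625 to 5279 after IL-4, while Flt3, Xcr1, Clec9a and Cd209a were undetected throughout. The part of these cells in the Pdcd1lg2 result was not tested.

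The promoter of Pdcd1lg2 is shown because this gene had the largest response to IL-4, whose signal runs through the transcription factor STAT6. The window covers 250 bases before and 50 after the annotated start, from RefSeq (GRCm38.p6), chr19:29410669-29410968, plus strand. Capitals mark a match to a STAT6 motif (TTC and GAA with 4 free bases between them), at -82 to -73 from the start, and to an NF-kB motif (GGG and CC with 5 free bases between them), at -244 to -235.
Pdcd1lg2: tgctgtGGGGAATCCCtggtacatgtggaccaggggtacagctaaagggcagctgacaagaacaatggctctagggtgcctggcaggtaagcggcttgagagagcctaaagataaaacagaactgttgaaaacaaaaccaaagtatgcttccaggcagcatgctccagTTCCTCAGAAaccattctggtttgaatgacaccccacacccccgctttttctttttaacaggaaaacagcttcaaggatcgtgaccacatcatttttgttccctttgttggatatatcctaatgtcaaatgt
Of 32851 promoters of the same length, 6.95% hold the STAT6 motif and 50.8% hold the NF-kB motif on either strand, so the latter is common. A match describes the letters and does not show that a factor binds there.

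SLAMF1 is a self-binding receptor of lymphocytes and activated macrophages that also recognises outer membrane proteins of some bacteria, and CD48 is the ligand of CD244 and CD2. Slamf1 responded most strongly to LPS among the members and was also raised by SR3335. ILMN_2721571 measured 5.98 and 6.30 in M0, 9.64 and 9.87 after LPS, and 6.32 and 6.67 after IL-4. ILMN_1249863 measured 4.82 and 5.56 in M0 and 4.73 and 5.12 after IL-4, where it was not above background on any of the 4 arrays, and 7.21 and 7.53 after LPS. On both probes the LPS arrays stood apart from the other 4.

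LPS raised Slamf1 by 3.61 ± 0.16 on ILMN_2721571 (12.2-fold, adjusted p = 1.75e-06) and at least 3.05-fold on ILMN_1249863 (adjusted p = 0.000189). LPS also exceeded IL-4, by 3.25 ± 0.16 on ILMN_2721571 (9.54-fold, adjusted p = 1.73e-06). These calls passed in every alternative, but without background correction the rise over M0 was 2.29 and 0.91 on the same probes, and with the authors' values it was 2.29 and 0.81. With IL-4 that probe differed from M0 by 0.36 (95% interval -0.0008 to 0.715, adjusted p = 0.153).

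With the compounds, ILMN_2721571 measured 11.35 and 11.48 with vehicle, 12.87 and 12.72 with SR3335, and 11.61 and 11.41 with SR1078. ILMN_1249863 measured 9.27 and 9.38, 10.95 and 10.88, and 9.57 and 9.51 in the same order. Both SR3335 arrays were above every other array on each probe, and the SR1078 arrays lay at or near vehicle. SR3335 raised Slamf1 by 1.38 ± 0.16 (2.61-fold, adjusted p = 0.00332) and by 1.58 ± 0.23 (3.00-fold, adjusted p = 0.00831). SR1078 differed from vehicle by 0.09 (95% interval -0.26 to 0.45, adjusted p = 0.85) and 0.21 (-0.31 to 0.72, adjusted p = 0.757), and SR3335 exceeded SR1078 by 1.29 ± 0.16 (adjusted p = 0.0047) and 1.38 ± 0.23 (adjusted p = 0.015).

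The SR3335 rise on ILMN_2721571 passed with each array left out (adjusted p = 0.0286 to 0.0468), and that on ILMN_1249863 did not with any (0.0529 to 0.0892). Between the compounds, Slamf1 lost its call on ILMN_1249863 with any of the 4 arrays left out (0.0828 to 0.111) and on ILMN_2721571 without SR3335 replicate 1 (0.0575) or SR1078 replicate 2 (0.055).

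Cd48 (ILMN_2633530) is Slamf1's neighbour on chromosome 1, with 1 annotated protein-coding entry, Tma7-ps, between them. It measured 6.82 and 6.69 in M0, 6.62 and 7.35 after LPS, and 6.11 and 7.00 after IL-4, and 7.67 and 7.58 with vehicle, 7.81 and 8.14 with SR3335, and 7.57 and 7.74 with SR1078. The M0, LPS and IL-4 arrays overlapped, and the spread within LPS and IL-4 was wide. None of the 6 Cd48 comparisons passed in the main setting (LPS against IL-4 did without IL-4 replicate 2, adjusted p = 0.0402), with differences of -0.20 to 0.43 and an SE of 0.30, so a change as small as those of Cd274 would not be detectable on this probe.

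The Slamf1 promoter is shown for the member with the largest rise after LPS, with chr1:171766882-171767181, plus strand, from RefSeq (GRCm38.p6) as the window. Capitals mark its single match among the motifs searched, to the STAT6 motif, at -148 to -139 from the start.
Slamf1: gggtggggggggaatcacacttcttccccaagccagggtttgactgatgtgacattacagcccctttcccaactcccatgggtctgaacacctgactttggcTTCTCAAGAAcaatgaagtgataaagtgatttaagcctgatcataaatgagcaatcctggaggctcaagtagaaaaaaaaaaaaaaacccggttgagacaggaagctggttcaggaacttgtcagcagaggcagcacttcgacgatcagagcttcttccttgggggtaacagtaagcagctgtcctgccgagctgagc
This window and that of Pdcd1lg2 each hold a match to the STAT6 motif. With IL-4, Slamf1 differed from M0 by 0.36 on ILMN_2721571 without passing (limma adjusted p = 0.153). A link between the motif and the response was not tested.

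CD200 is a membrane glycoprotein of endothelium, neurons, lymphocytes and other cells, and CD200R1, its receptor on myeloid cells, restrains their activation. Cd200 ILMN_3160770 measured 5.13 and 5.18 in M0, not above background, 7.76 and 7.45 after LPS, and 5.79 and 5.00 after IL-4, with IL-4 replicate 2 not above background. Cd200 ILMN_3160771 measured 6.28 and 5.85, 8.25 and 7.98, and 6.02 and 5.80 in the same order. The LPS arrays were well above the others on both probes, and IL-4 overlapped M0. With LPS, the first Cd200 probe was at least 3.58-fold higher (log2 difference 2.45 ± 0.23, adjusted p = 0.00011) and the second rose by 2.05 ± 0.15 (4.15-fold, adjusted p = 2.88e-05). Both passed in every alternative that tested them, but the differences were 1.03 and 1.04 without background correction and 0.93 and 1.00 with the authors' values. With IL-4 the differences were 0.24 and -0.16 (adjusted p = 0.513 for both), and the first passed as higher without IL-4 replicate 2 (0.0294).

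Cd200 was higher on both SR3335 arrays than with vehicle but did not pass. ILMN_3160770 measured 9.96 and 10.16 with vehicle, 10.86 and 10.67 with SR3335, and 10.33 and 10.08 with SR1078. ILMN_3160771 measured 9.54 and 9.63, 10.08 and 10.02, and 9.44 and 9.40 in the same order. The SR3335 arrays were above all others on both probes, by 0.70 ± 0.23 (adjusted p = 0.156) and 0.47 ± 0.15 (adjusted p = 0.147) over vehicle. Both differences passed without background correction (adjusted p = 0.00297 and 0.00776), with the authors' values (0.0017 and 0.00543) and with each set on its own (0.0458 and 0.0374). SR3335 was above SR1078 by 0.56 (adjusted p = 0.252) and 0.63 (adjusted p = 0.0588). Both passed without background correction (0.0127 and 0.00101) and with the authors' values (0.0079 and 0.000631), and ILMN_3160771 also with each set on its own (0.0198), a stricter filter (0.0419) and a variance trend (0.0237). SR1078 differed from vehicle by 0.14 (95% interval -0.38 to 0.67) and -0.16 (-0.50 to 0.18).

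Markers of sinusoidal endothelium, a known source of CD200, were measured on these arrays. After LPS, 4 of its 10 markers rose (Pecam1, Cdh5, Dnase1l3 and Fcgr2b), against 14.8% of all genes, and 3 fell (Stab2, Oit3 and Clec4g), against 17.3%. The summed signal of the 10 was 7256 to 7324 in M0, 8844 to 9391 after LPS and 10810 to 11750 after IL-4. With SR3335, 0 of 10 rose, against 1.92% of all genes, and 1 fell (Stab2), against 2.21%. The sum was 20900 to 21560 with vehicle, 20360 to 21170 with SR3335 and 21660 to 21880 with SR1078. The part of these cells in the Cd200 values was not tested.

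The receptor gene Cd200r1 was near background. ILMN_2819717 was detected on 2 of 12 arrays, Veh replicate 1 and SR1078 replicate 2, and its group means lay between 4.91 and 5.67. The fit called it lower with LPS than with IL-4 (adjusted p = 0.0348), but it was undetected on all 4 of those arrays, so no fold is given, and the call was lost with median centring (adjusted p = 0.0762), the authors' values (0.106), no filter (0.0501), a variance trend (0.0553) and when any 1 of the LPS or IL-4 arrays was left out (0.0568 to 0.139).

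For Cd200, which moved with Slamf1 after LPS, the window is chr16:45409004-45409303, minus strand, from RefSeq (GRCm38.p6). It holds 0 matches to the 5 motifs searched and so has no capitals.
Cd200: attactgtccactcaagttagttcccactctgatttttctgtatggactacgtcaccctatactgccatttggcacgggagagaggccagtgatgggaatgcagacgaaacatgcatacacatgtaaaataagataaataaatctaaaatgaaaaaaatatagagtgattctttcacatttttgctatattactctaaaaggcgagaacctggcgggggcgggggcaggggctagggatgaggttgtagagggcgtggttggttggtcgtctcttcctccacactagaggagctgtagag
The other motifs were TGANTCA (AP-1, in 7.81% of all promoters), an interferon response element (GAAA and GAAA with 2 free bases between them, 3.44%) and AGGTCA (the core of a ROR site, 16.3%), searched on both strands. No match in the printed windows overlaps another. Of the 7 members with an available promoter, 3 held the NF-kB motif (50.8% of all promoters), 2 the STAT6 motif (6.95%) and 1 the AP-1 motif. AGGTCA and the interferon response element were each held by 0 of the 7. A link between these matches and the differences was not tested. The Cd86, Cd40 and Cd200r1 promoters were not analysed here.

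**Figure D4:**
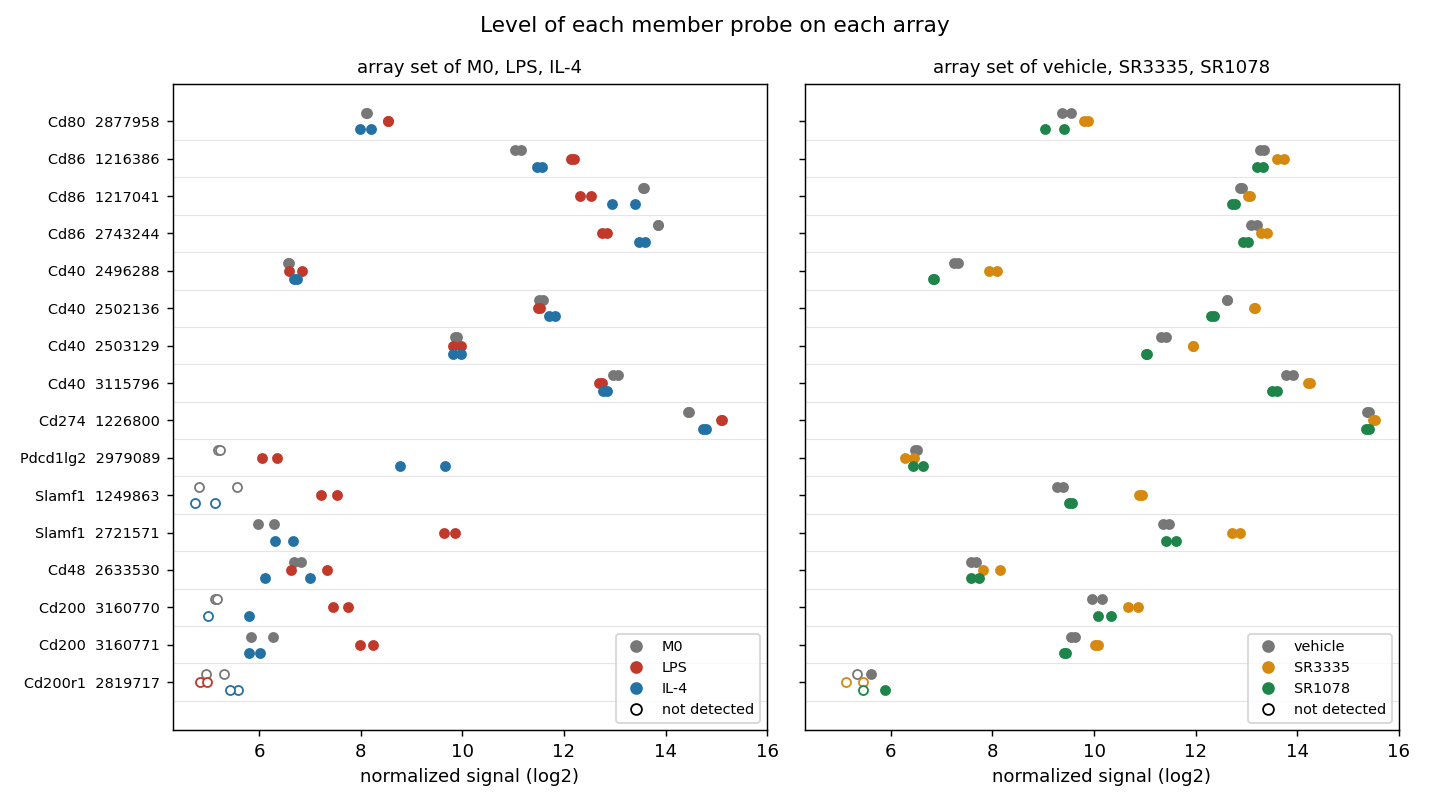
Log2 level of each member probe (rows) on each array (points), with M0, LPS and IL-4 on the left and vehicle, SR3335 and SR1078 on the right; open points were not above background. The Pdcd1lg2 points after IL-4 and the Slamf1 and Cd200 points after LPS stand apart from the other groups of their set, and the Cd200r1 points lie at the background.

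Around the members, 60 other genes of the same pathways were listed in 6 lists, of which 55 are on the array and 41 were tested, each gene given at its passing probe with the largest difference. After LPS, 12 of the 41 rose and 6 fell, where 14.8% and 17.3% of all tested genes did. Of 9 tested B7 family and related ligands, 3 rose and 4 fell. The macrophage complement receptor Vsig4, which inhibits T cells, fell by 1.93 ± 0.10 (adjusted p = 4.55e-06), the activation marker Cd83 fell by 1.71 ± 0.09 (adjusted p = 3.63e-06), the B7 family member Cd276 fell by 0.79 and the phagocytosis inhibitor Cd47 fell by 0.77. Of 7 TNF superfamily genes, 3 rose and 0 fell, among them the costimulatory receptor Tnfrsf9 by 0.96 ± 0.13 (adjusted p = 0.000858) and its ligand Tnfsf9 by 0.88 ± 0.12 (adjusted p = 0.000682). Of 7 CD40 and TNF receptor adaptors, 3 rose (Traf1 by 0.78, Traf6 by 0.74, Birc2 by 0.51) and 0 fell. Of 7 SLAM family genes 1 rose, Cd244a, the receptor of CD48, which was at least 1.97-fold higher than in M0, where it was undetected. Of 4 CD200 receptor signalling genes, 2 rose, Dok2 by 0.37 and Inpp5d by 0.43.

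After IL-4, 6 of the 41 rose and 9 fell, where 9.31% and 10.9% of all tested genes did. Of 9 B7 family and related genes, 2 rose (the TIM-3 ligand Lgals9 by 0.82 ± 0.14 and Vsig4 by 0.41 ± 0.10) and 1 fell (Cd276 by 0.94 ± 0.12, adjusted p = 0.00145). Of 7 TNF superfamily genes, 0 rose and 2 fell, Tnfrsf9 by 0.87 on ILMN_3103746 (adjusted p = 0.0473, close to the threshold) and Tnfsf9 by 0.49. The LPS rise of Tnfrsf9 given above was on another probe, ILMN_2445789. LPS exceeded IL-4 in both genes, by 1.59 ± 0.26 for Tnfrsf9 on ILMN_3103746 (adjusted p = 0.00159) and 1.37 ± 0.12 for Tnfsf9 (adjusted p = 4.12e-05). Of 7 SLAM family genes, 2 rose, including Cd244a (at least 1.81-fold), and 3 fell, including the lymphocyte adhesion gene Cd2 by 0.82 ± 0.11. Of 7 adaptors, Traf5 rose by 0.71 and 3 fell, Traf2 by 0.75, Map3k14 by 0.42 and Traf1 by 0.42. Dok2, an adaptor that CD200R1 recruits, rose by 0.89 ± 0.08 (adjusted p = 0.000226), the only 1 of 4 genes in its list.

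Of 7 tested lymphocyte receptors, Cd28, Ctla4 and Icos bind ligands among the 10 genes described here, while Havcr2, Lag3, Cd226 and Btla bind others. Ctla4 was undetected in M0, LPS and IL-4. After LPS, 0 of 7 tested rose and 2 fell, Havcr2 (TIM-3, also a macrophage gene) by 1.33 ± 0.09 (adjusted p = 1.71e-05) and Cd28, which was undetected after LPS (at least 1.20-fold lower, adjusted p = 0.00574). After IL-4, 0 of 7 rose and 0 fell in limma. Of 7 tested T and NK cell markers, 5 fell with LPS (against 17.3% of all genes) and 5 with IL-4 (against 10.9%). Their summed signal was 5322 to 5743 in M0, 3905 to 3908 after LPS and 3672 to 3845 after IL-4. The part of these lymphocytes in the receptor values was not tested.

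With SR3335, 4 of the 41 rose and 4 fell, where 1.92% and 2.21% of all tested genes did. Ctla4, the inhibitory receptor for CD80 and CD86, rose by 0.82 ± 0.13 (adjusted p = 0.0117) and Havcr2 fell by 0.54 ± 0.09 (adjusted p = 0.0148), the 2 of 7 receptors that passed, while 0 of 7 T and NK cell markers passed either way. Of 9 B7 family and related genes, 2 rose, Cd83 by 0.55 ± 0.09 (adjusted p = 0.0122) and Pvr by 0.44 ± 0.09 (adjusted p = 0.0406). Tnfrsf9 rose by 0.76 ± 0.13 (adjusted p = 0.0183), 1 of 7 in its list, Dok2 fell by 0.59 ± 0.08 (adjusted p = 0.00672), 1 of 4, and in the SLAM family Slamf9 fell by 0.45 and Cd84 by 0.36, 2 of 7. None of the 7 CD40 and TNF receptor adaptors passed with SR3335. With SR1078, 1 of all 41 tested genes of the 6 lists passed, where 0.901% of all genes rose and 0.297% fell. It was the adaptor Birc2, which rose by 0.54 ± 0.09 (adjusted p = 0.0319). Between the compounds, SR3335 was higher for Ctla4 by 1.00 ± 0.13 (adjusted p = 0.00518), Icos by 0.86, Cd83 by 0.73, Tnfrsf9 by 0.82, Tnfrsf14 by 0.73, Traf1 by 0.52 and Slamf7 by 0.38, and lower for Havcr2 by 0.71, Cd84 by 0.41 and Dok2 by 0.40.

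**Figure D5:**
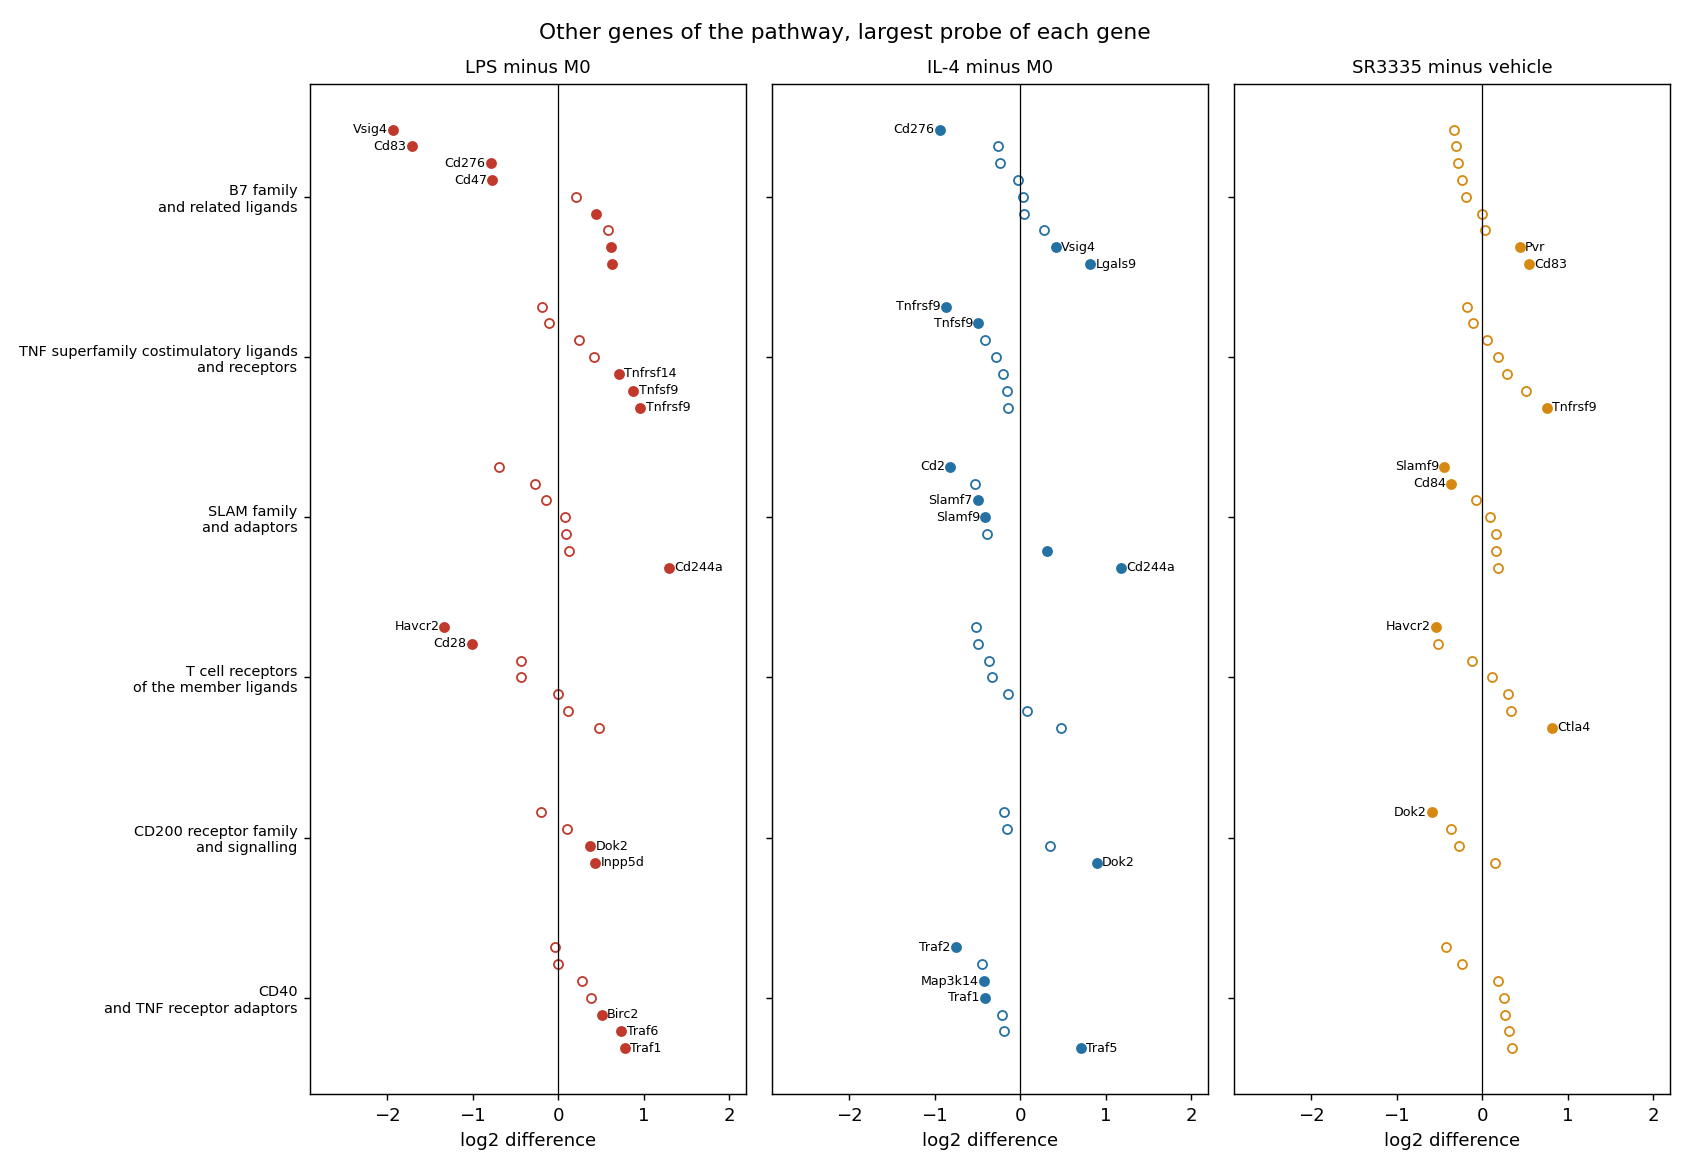
Log2 difference of the other pathway genes in 6 lists (rows of points) for LPS and IL-4 against M0 and SR3335 against vehicle. Each gene is shown at its passing probe with the largest difference, or at its largest difference where no probe passed. Filled points passed at an adjusted p under 0.05 and the named ones are those with the largest differences. Vsig4 and Cd83 lie farthest to the left after LPS, and Tnfrsf9 lies to the right after LPS and SR3335 and, on another probe, to the left after IL-4.

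The genes whose differences were most like those of a member were found by the Euclidean distance over 4 log2 differences (LPS and IL-4 against M0, SR3335 and SR1078 against vehicle) among 9429 other genes, each taken at its brightest probe. Nearest to Pdcd1lg2 were Ccl24 and Ccl8, at distances of 1.37 and 1.42, with IL-4 differences of 4.03 and 2.65. Nearest to Slamf1 were Serf1 (0.85, with 3.88 after LPS) and Sprr2d (1.04, with 3.12 after LPS and 1.56 with SR3335). Nearest to Cd200 were Il33 (0.42, with 2.23 after LPS) and Sema4a (0.47, with 2.39 after LPS). Members with small differences had much closer neighbours, Zfp366 (0.09) and Gbp9 (0.215) for Cd40, 5031410I06Rik (0.08) and Scarf1 (0.11) for Cd274, Tnfrsf11b and Rad21 (both 0.13) for Cd80, and Fzd4 and Pus7l (both 0.12) for Cd200r1, which was near background. The distances describe likeness over these 4 differences only.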

How the data were processed

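RNA of cultured Kupffer cells was measured on 12 arrays, grouped from the labels. The deposited signals are intensity values of 25697 probes without background subtraction or normalization, made with GenomeStudio 2011.1 per the submitters' processing notes. Each has a deposited detection p-value per the file headers. The authors' processed values are on the log2 scale, quantile-normalized within 2 sets of 6 arrays as the values show, and served as an alternative.

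Signals were background-corrected with neqc in limma 3.58.1 (R 4.3.3; normexp with control levels inferred from the detection p, offset 16), quantile-normalized over 12 arrays and log2-transformed. The 13678 probes kept had a detection p under 0.05 on 2 or more arrays. A linear model with 1 mean per group (6 residual degrees of freedom) gave moderated tests, Benjamini-Hochberg adjusted over all kept probes. A gene passed where at least 1 probe passed and none passed the other way. A fold against a group with the probe undetected on both arrays is a lower bound. Probe symbols were updated through RefSeq gene identifiers for 23962 probes, and 1719 probes have no listed gene. The number of arrays limits the precision.

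The members, gene lists and motifs were chosen with earlier results of these data known, and 1 motif of the planned search is not reported here. All member probes are named, with up to 4 passing genes per list and comparison with the largest difference, and the 2 genes most like each changed member. Figures used Python 3.11.15 with pandas 2.3.3 and matplotlib 3.10.9. Alternatives were no background correction, median centring, the authors' values, each array set on its own, no or a stricter filter (detection p under 0.01), 1 probe per gene, a variance trend, the replicate number as a block, and leaving out each array. They were run for the member probes and for counts over all probes. Calls of single list and marker genes were not checked under them.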

Additional observations from a re-analysis of the deposited data

How the results depend on the processing

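Of 40 member probe results past the threshold, 21 stayed past it in the same direction under every alternative, and 0 reversed. With each array set on its own, the probes past the threshold numbered 2304 for LPS against M0 (3883 in the main setting), 709 for IL-4 against M0 (2359) and 2965 for LPS against IL-4 (4658), and the member genes 3 for LPS and 1 for IL-4, which was also 1 with median centring. For SR3335 against vehicle (470 probes, 2 member genes) there were 851 probes and 4 members without background correction, 1087 and 5 with the authors' values, and 811 probes with a variance trend. For SR1078 (121 and 0) there were 438 and 1, 589 and 1, and 370 and 1 in the same order, and 215 probes with a stricter filter. For SR3335 against SR1078 (520 and 3) there were 929 and 5, 1110 and 5, and 844 and 5, with 5 members under a stricter filter and 323 probes without a filter.

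With 1 array left out, and the lone array assumed to vary like the other groups, the probes past the threshold ranged from 2602 to 2889 for LPS, 1221 to 3350 for IL-4, 3438 to 4768 for LPS against IL-4, 67 to 129 for SR3335, 0 to 4 for SR1078 and 57 to 131 between the compounds. At 0, limma gave 1260 and 1475 probes with an unadjusted p under 0.05. Member genes ranged from 3 to 4, 1 to 4, 4 to 6, 1 to 2, 0 to 0 and 1 to 3. Median centring moved the share of higher calls from 47.4% to 28.8% for LPS (median of all probes -0.11), from 47.6% to 37% for IL-4, from 49.2% to 36.6% between them and from 46.9% to 34% between the compounds.

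Replicate numbers did not pair the arrays (correlations of deviations -0.013 to 0.093). With the replicate number as a block, 296 probes passed for SR3335, 25 for SR1078 and 296 between the compounds. With this block 6 member calls were lost: Cd80 for LPS (adjusted p = 0.0758), between LPS and IL-4 (0.0565) and between the compounds (0.0837), Cd40 ILMN_3115796 for LPS (0.064) and SR3335 (0.115), and Cd86 ILMN_2743244 for IL-4 (0.0787). Cd200 ILMN_3160771 passed between the compounds (0.0278). The cause of these shifts was not tested.

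Values near 0 changed sign. With median centring, Cd40 ILMN_2503129 was -0.139 for LPS, -0.006 for IL-4 and -0.133 between them. With 1 array left out, it ranged from -0.057 to 0.101, -0.052 to 0.094 and -0.078 to 0.079, and Cd40 ILMN_2496288 from -0.136 to 0.119 between LPS and IL-4. Cd48 ranged from -0.132 to 0.589 for LPS, -0.644 to 0.238 for IL-4, -0.012 to 0.872 between them and -0.055 to 0.116 for SR1078. For IL-4, Cd200 ranged from -0.373 to 0.061 and -0.161 to 0.643, Slamf1 ILMN_1249863 from -0.64 to 0.106 and Cd80 from -0.128 to 0.079. For SR1078, Cd274 ranged from -0.041 to 0.022, Cd86 ILMN_1216386 from -0.088 to 0.032, Slamf1 ILMN_2721571 from -0.008 to 0.196, Pdcd1lg2 from -0.054 to 0.145 and Cd200r1 from -0.011 to 0.401.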

Other observations

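The untreated and vehicle controls lay in different array sets, and their levels are given side by side without a test. Slamf1 ILMN_2721571 averaged 6.14 in M0 and 11.41 with vehicle, Cd200 ILMN_3160770 averaged 5.15 (not above background) and 10.06, and Cd40 ILMN_2503129 averaged 9.88 and 11.37. The vehicle levels of Slamf1 and Cd200 were above those of the LPS group, at 9.75 and 7.61. Cd86 ILMN_1217041 went the other way, at 13.57 in M0 and 12.89 with vehicle. The summed signal of 5 hepatocyte markers was 388 to 595 in the set with M0 and 5290 to 8185 in the set with vehicle. That of 10 sinusoidal endothelium markers was 7256 to 7324 in M0 and 20900 to 21560 with vehicle. For 12 Kupffer cell and macrophage markers it was 186900 to 195900 in M0 and 125700 to 129100 with vehicle. Array set, vehicle, culture time and the make-up of the cells cannot be told apart here.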
